A study of Mus musculus with 10 samples.

Results

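The genes that govern passage through the G1 phase of the cell cycle were examined in embryonic mouse cortex with and without Emx2, a homeobox transcription factor of the dorsal telencephalon. The members were 10 genes chosen by symbol: the D-type cyclins Ccnd1, Ccnd2 and Ccnd3, their kinases Cdk4 and Cdk6, the inhibitors Cdkn1b and Cdkn2c, and the Rb family genes Rb1, Rbl1 and Rbl2. All 10 were found among 56748 gene identifiers, and all 10 were among the 18163 genes that passed the filter on low counts. Read counts per gene came from 5 libraries of E12.5 cortex labelled Emx2 KO and 5 of the same stage labelled WT. The labels name no strain, sex, litter or kind of allele. They do not say which libraries come from separate embryos, and the p-values reflect variation among libraries only, some of which may be technical.

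D-type cyclins bind Cdk4 or Cdk6 in response to mitogens, and the complexes phosphorylate the Rb family of pocket proteins, which otherwise hold back E2F transcription factors and with them the genes of S phase. Cdkn2c (p18) belongs to the INK4 inhibitors, which bind Cdk4 and Cdk6 themselves, and Cdkn1b (p27) to the Cip/Kip inhibitors, which bind cyclin-kinase complexes. In the embryonic cortex the length of G1 changes as progenitors along the ventricle shift from self-renewal to making neurons, and neurons leave the cycle from G1.

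Total counts ran from 13794221 to 30902451 in KO libraries and from 9720840 to 35674113 in WT libraries. They fell into 5 large libraries (3 KO, 2 WT) and 5 small ones (2 KO, 3 WT). The sample titles end in 1 of 3 codes, whose meaning the labels do not give. Within a code the KO libraries are of 1 size class and the WT libraries of the other, so a difference within a size class cannot be told apart from code, nor a difference within a code from size class. Transcripts assigned to Emx2 lay between 94.6 and 146 CPM (reads scaled to a common library size) in KO libraries and between 175 and 208 CPM in WT libraries, lower in every KO library but far from absent. The labels do not describe the allele, and whole-gene counts cannot show how the gene was altered.

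Of the 10 members, 2 were higher in the knockout, 1 was lower and 7 did not pass (edgeR quasi-likelihood test, two-sided, Benjamini-Hochberg adjusted p under 0.05 over all genes tested). That is 30% of the members, against 22.4% over the whole table. Higher calls made up 13.1% and lower calls 9.37% of all genes. The median log2 fold change of the members was 0.06, beside -0.01 for all genes tested. KO and WT libraries did not overlap for 1 member, Ccnd2, which lay below WT, and for 16.7% of the whole table (KO above WT for 9.63%, below for 7.06%). In a bulk sample, fewer cells of a type and less RNA per cell cannot be told apart.

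**Figure D1:**
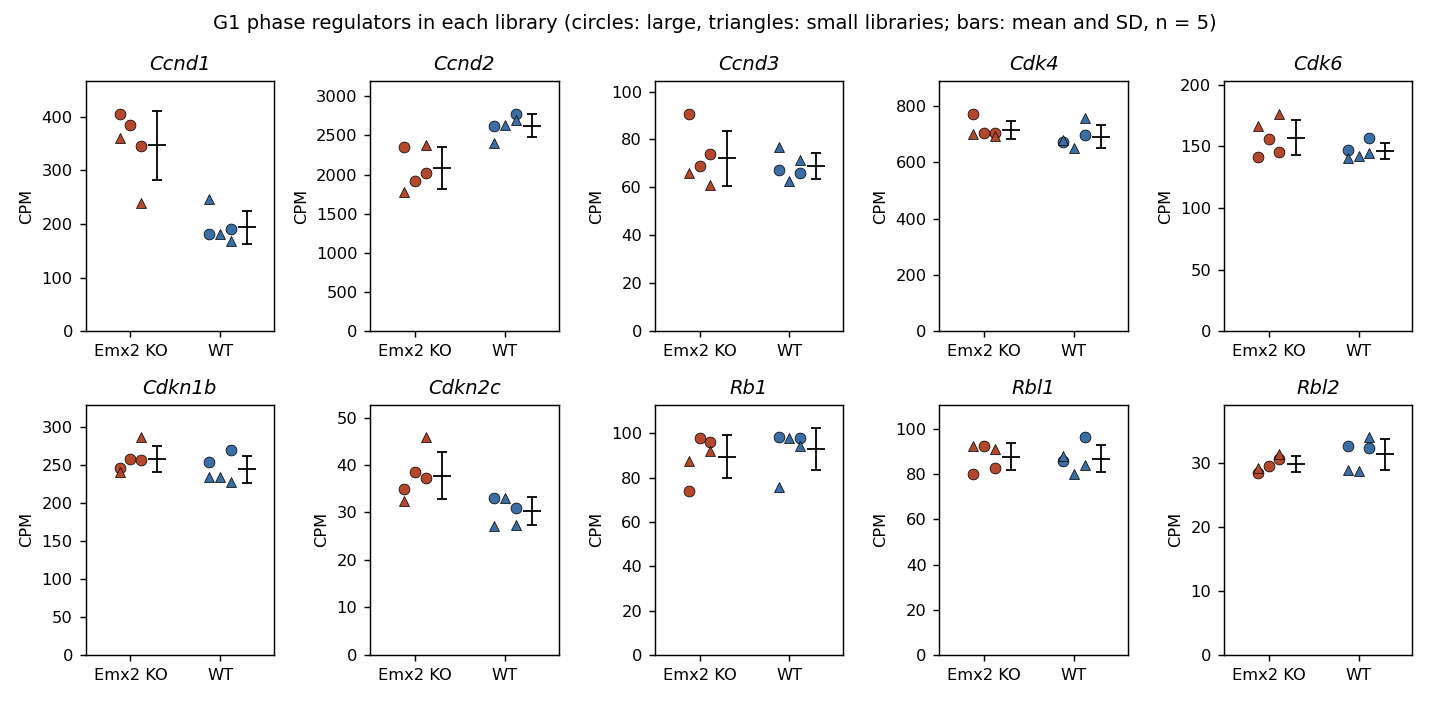
Level of each gene in every library, in CPM on an axis that starts at 0, with Emx2 KO libraries left and WT libraries right in each panel, circles for large and triangles for small libraries, and the mean with its SD (n = 5) beside the points. Ccnd1 reaches 345 CPM or more in 4 of 5 KO libraries and stays at or below 246 CPM in WT, whereas Ccnd2 lies lower in all 5 KO libraries than in any WT library.

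Among the D-type cyclins Ccnd1 was higher and Ccnd2 lower in the knockout, while Ccnd3 did not pass. Ccnd1, whose transcription is a classical response to mitogens, had 406, 385, 360, 345 and 239 CPM in KO replicates 1 to 5, against 246, 182, 181, 192 and 169 CPM in WT replicates 1 to 5. In the knockout 4 libraries stood well above all WT libraries, while KO replicate 5 fell just short of WT replicate 1, so the groups overlapped by that pair. Ccnd1 averaged 347 ± 64.6 CPM in KO and 194 ± 30.3 CPM in WT libraries (SD, n = 5 per genotype). The difference was 0.84 ± 0.14 on the log2 scale (SE, edgeR adjusted p = 0.00103), or 1.79-fold. This gene ranked within the lowest 4.95% of p-values over all genes tested. Its log2 fold change was 1.02 ± 0.08 in the large libraries alone (adjusted p = 0.000318) and 0.59 ± 0.21 in the small ones alone, where it did not pass (adjusted p = 0.172).

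Ccnd2, the most abundant D-type cyclin of this tissue and in mouse cortex a progenitor cyclin whose mRNA is also carried into basal processes, had 2347, 1915, 1775, 2021 and 2384 CPM in KO replicates 1 to 5, against 2400, 2630, 2626, 2778 and 2699 CPM in WT replicates 1 to 5. Every KO library lay below every WT library, though KO replicate 5 and WT replicate 1 were nearly level. Ccnd2 averaged 2088 ± 268 CPM in KO and 2627 ± 141 CPM in WT libraries, and fell by 0.33 on the log2 scale with an SE of 0.08 (edgeR adjusted p = 0.0131), to 0.795 of the WT level. Large libraries alone gave -0.37 (edgeR adjusted p = 0.0438), and small libraries alone gave -0.31, which did not pass (adjusted p = 0.237).

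Ccnd3 is the D-type cyclin best known from lymphoid cells. It ranged from 61.1 to 90.8 CPM in KO libraries, with a median of 68.9, and from 62.8 to 77.0 CPM in WT libraries, with a median of 67.3. The groups overlapped throughout, and the log2 fold change of 0.07 (95% interval -0.14 to 0.28) did not pass. KO replicate 1 was the highest library, and without it the value was -0.03.

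Levels per kilobase of exon allow for gene length only in part. The length joins the exons of all annotated transcripts and can exceed that of the transcript present, so comparisons between genes are approximate. On this measure Ccnd2 stood at 222 ± 28.5 CPM per kilobase in KO and 279 ± 15.0 in WT libraries, and Ccnd1 at 73.7 ± 13.7 in KO and 41.2 ± 6.43 in WT libraries. Ccnd3 stood at 8.21 ± 1.30 CPM per kilobase in KO and 7.86 ± 0.63 in WT libraries. Ccnd1 thus made up 24.9%, 27.9%, 28.1%, 24.7% and 16.3% of this D-type cyclin total in KO replicates 1 to 5, against 16.5%, 11.9%, 11.8%, 11.8% and 10.8% in WT replicates 1 to 5. In 4 KO libraries its share exceeded that of every WT library, and KO replicate 5 was level with WT replicate 1. Without length scaling, the 3 cyclins summed to 2508 ± 256 CPM in KO and 2890 ± 114 CPM in WT libraries, with ranges that overlapped (2201 to 2843 in KO, 2723 to 3036 in WT). Summed and relative levels are descriptions without a test.

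**Figure D2:**
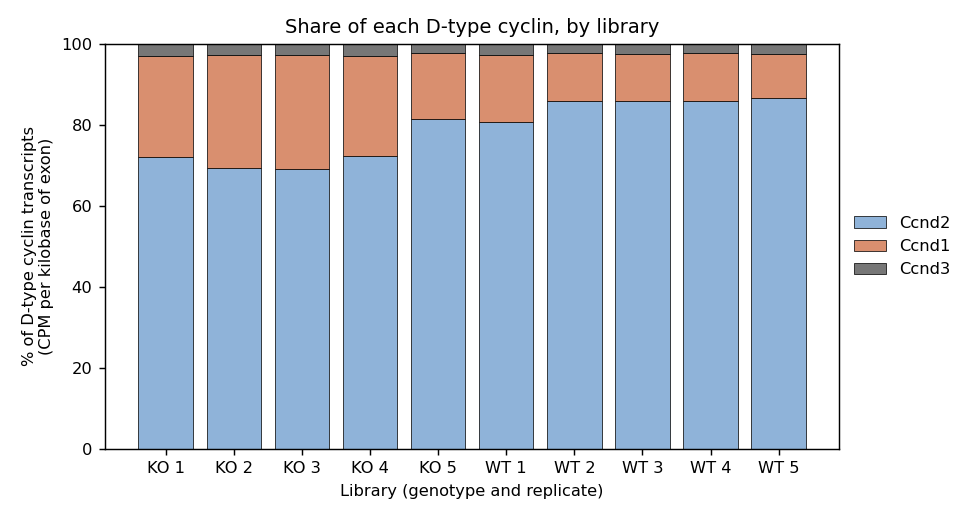
Share of Ccnd2, Ccnd1 and Ccnd3 in the D-type cyclin total of each library, in percent of CPM per kilobase of exon, KO replicates left and WT replicates right. The Ccnd1 band spans 16.3% to 28.1% in KO libraries and 10.8% to 16.5% in WT libraries, and the Ccnd3 band stays below 3%.

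The kinase genes did not pass. Cdk4, the main kinase partner by transcript level, ranged from 694 to 773 CPM in KO libraries, with a median of 705, and from 650 to 756 CPM in WT libraries, with a median of 680. Its log2 fold change was 0.05 (95% interval -0.06 to 0.16). Cdk6, its close relative, ranged from 142 to 177 CPM in KO libraries, with a median of 156, and from 140 to 157 CPM in WT libraries, with a median of 145. The log2 fold change of Cdk6 was 0.10 (95% interval -0.03 to 0.23), but -0.04 with large libraries alone and 0.27 with small ones alone. Per kilobase of exon Cdk4 made up 95.1% ± 0.57 of the pair in KO and 95.3% ± 0.27 in WT libraries.

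Of the inhibitors, Cdkn2c was called higher. It had 34.9, 38.5, 32.5, 37.2 and 45.8 CPM in KO replicates 1 to 5, against 27.2, 33.0, 33.0, 31.0 and 27.4 CPM in WT replicates 1 to 5. KO replicate 3 lay below 2 WT libraries and the other 4 KO libraries above all of them. The log2 fold change was 0.31 ± 0.09 (SE, edgeR adjusted p = 0.0334), or 1.24-fold, from means of 37.8 ± 5.04 CPM in KO and 30.3 ± 2.90 CPM in WT libraries. This call is close to the threshold: it was lost in 13 of 23 alternatives, while the direction held in all 23. The 13 were 6 of the 10 fits that left out 1 library (highest adjusted p = 0.0758), total counts or upper-quartile scaling, Y-linked expression as a covariate (adjusted p = 0.0841), and the fits of part of the libraries. Large libraries alone gave 0.20 (edgeR adjusted p = 0.133), small libraries alone 0.42 (adjusted p = 0.209), and title codes 241022 and 14922 alone 0.29 each (adjusted p = 0.315 for 241022, adjusted p = 0.332 for 14922). Cdkn1b, which is known in cortex for promoting cell cycle exit, ranged from 241 to 287 CPM in KO libraries, with a median of 257, and from 228 to 271 CPM in WT libraries, with a median of 235. Its log2 fold change of 0.08 (95% interval -0.05 to 0.20) did not pass.

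The pocket protein genes did not pass either. Rb1, the retinoblastoma gene, ranged from 73.8 to 97.9 CPM in KO libraries (median 91.9) and from 76.0 to 98.2 CPM in WT libraries (median 97.9), with a log2 fold change of -0.06 (95% interval -0.25 to 0.13). Rbl1, which encodes p107 and is itself an E2F target, ranged from 80.0 to 92.6 CPM in KO libraries (median 91.1) and from 80.0 to 96.3 CPM in WT libraries (median 86.0), with a log2 fold change of 0.01 (95% interval -0.12 to 0.14). Rbl2, which encodes p130, the pocket protein typical of resting cells, ranged from 28.4 to 31.4 CPM in KO libraries (median 29.6) and from 28.8 to 34.0 CPM in WT libraries (median 32.4), with a log2 fold change of -0.07 (95% interval -0.21 to 0.06). Rb1 stood at 73.8 CPM in KO replicate 1 and 76.0 CPM in WT replicate 1, while the other 8 libraries lay between 87.3 and 98.2 CPM.

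**Figure D3:**
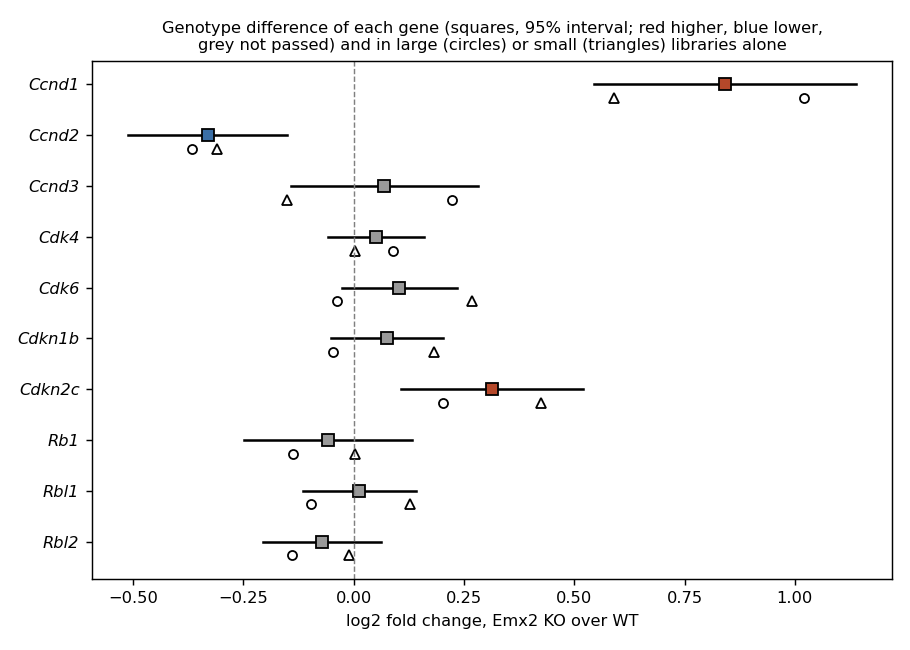
Log2 fold change of each gene, Emx2 KO over WT, with its 95% interval over all 10 libraries (squares, red for higher, blue for lower, grey for not passed) and the value in the large (circles) or small (triangles) libraries alone. Ccnd1 (0.84), Cdkn2c (0.31) and Ccnd2 (-0.33) each keep to their side of 0 in both size classes, and Ccnd3, Cdk6, Cdkn1b, Rb1 and Rbl1 lie on opposite sides of 0 in the 2 classes.

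The order of levels per kilobase of exon was nearly the same in both genotypes. In the knockout it ran from Ccnd2 (222) and Cdk4 (220), whose libraries overlapped, through Ccnd1 (73.7), Cdkn1b (56.7), Rb1 (14.9), Rbl1 (14.7), Cdkn2c (14.1), Cdk6 (11.2) and Ccnd3 (8.21) to Rbl2 (3.94 CPM per kilobase). In WT cortex Ccnd2 (279) stood clear above Cdk4 (213), and Cdkn1b (53.7) came before Ccnd1 (41.2), although their libraries overlapped. Ccnd1 and Cdkn1b were the only members to change places, and in the knockout libraries they overlapped too. Rb1 and Rbl1 could not be ordered in either genotype, nor could Cdkn2c and Cdk6. In the knockout, libraries also overlapped between Rbl1 and Cdkn2c and between Cdk6 and Ccnd3.

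The interaction of genotype with size class did not pass for any of the 10 members, as for 0% of all genes tested (edgeR, and limma-voom likewise). At an unadjusted p under 0.05, edgeR gave 1791 of 18163 genes and 3 of the 10 members, and limma-voom 1820 genes and 2 members. The largest gap between size classes among the members was that of Ccnd1, 0.43 higher on the log2 scale in the large libraries (adjusted p = 0.576). Code 14922 holds the small KO and large WT libraries, and the other codes hold the large KO and small WT libraries. This interaction therefore cannot be told apart from a difference between code 14922 and the other codes.

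Reads of a gene and of a neighbour on the opposite strand cannot be told apart where their exons overlap, since no source used here gives the strand setting. Such protein-coding neighbours overlap Ccnd1, Ccnd3, Cdk4, Rb1 and Rbl2 in the GRCm38 annotation. LTO1, beside Ccnd1, held 12.3% as many counts as Ccnd1 and had a log2 fold change of 0.12, which did not pass. Lpar6, which lies within Rb1, fell (log2 fold change -0.61 ± 0.09, edgeR adjusted p = 0.000735), and Bysl, beside Ccnd3, rose (0.25 ± 0.05, adjusted p = 0.00472). Tspan31 beside Cdk4 (-0.10), Rcbtb2 beside Rb1 (0.15) and Aktip beside Rbl2 (-0.02) did not pass. No protein-coding gene overlaps Ccnd2, Cdk6, Cdkn1b, Cdkn2c or Rbl1 in that annotation.

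Among 40 other genes of the G1 to S transition, 39 were matched and 37 tested. Of these 11 were higher, 3 lower and 23 did not pass (37.8% called, beside 22.4% of all genes). Their median log2 fold change was 0.05. Such shares are descriptions, since the members, this list and those below were chosen with earlier results of these data known. The largest difference was in Cdkn1a (p21), a Cip/Kip inhibitor and p53 target, which had 16.2, 10.3, 13.0, 10.4 and 10.04 CPM in KO replicates 1 to 5, against 32.9, 23.4, 25.6, 24.7 and 31.3 CPM in WT replicates 1 to 5. All KO libraries lay below all WT libraries (log2 fold change -1.19 ± 0.15, edgeR adjusted p = 0.000201). The next largest among the called genes, in Cdkn1c, was 1.48-fold.

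Further inhibitors were higher. Cdkn1c (p57), the third Cip/Kip gene and an imprinted one, had 196, 163, 188, 160 and 117 CPM in KO replicates 1 to 5, against 112, 116, 118, 99.0 and 113 CPM in WT replicates 1 to 5. KO replicate 5 was again the lowest of its group and within the WT range, and the log2 fold change was 0.57 ± 0.12 (edgeR adjusted p = 0.00421). The INK4 gene Cdkn2d (p19) had 30.2, 33.5, 28.0, 32.0 and 32.5 CPM in KO replicates 1 to 5, against 22.4, 21.4, 25.3, 26.6 and 23.5 CPM in WT replicates 1 to 5. These groups did not overlap (log2 fold change 0.38 ± 0.07, adjusted p = 0.00309). The remaining INK4 genes, Cdkn2a and Cdkn2b, held at most 3 and 8 reads in any library and were not tested.

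E2F genes were higher by small amounts or did not pass. E2f2, an activating E2F, had 55.3, 54.8, 48.2, 54.4 and 54.2 CPM in KO replicates 1 to 5, against 39.7, 42.2, 41.5, 44.1 and 36.8 CPM in WT replicates 1 to 5, without overlap (log2 fold change 0.38 ± 0.06, edgeR adjusted p = 0.000768). The repressive family member E2f8 (0.34 ± 0.06, adjusted p = 0.00112) and the activator E2f1 (0.25 ± 0.04, adjusted p = 0.00115) rose without overlap too, and E2f4, which acts mainly with pocket proteins, rose by 0.16 ± 0.04 (adjusted p = 0.0153). E2f3 (0.05), E2f5 (0.03), E2f6 (0.08) and E2f7 (-0.03) did not pass, nor did the E2F partner genes Tfdp1 (-0.01) and Tfdp2 (-0.05).

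Further calls were Mybl2 (0.23), a B-Myb gene of the late G1 programme, and 2 genes that limit G1 cyclins, Fbxw7 (0.25), the ubiquitin ligase subunit for cyclin E, and Ambra1 (0.20), the ligase adaptor for D-type cyclins, all higher. Ccnh (-0.21) and Cdk7 (-0.25), subunits of the kinase that activates other cell cycle kinases, were lower, while their partner Mnat1 (-0.13) did not pass. Myc (0.28) and Cdc25a (0.18), named after their values were seen, were higher as well. The genes of cyclin E and its kinase, which act next, did not pass: Ccne1 had a log2 fold change of 0.17, Ccne2 of 0.08 and Cdk2 of 0.01.

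**Figure D4:**
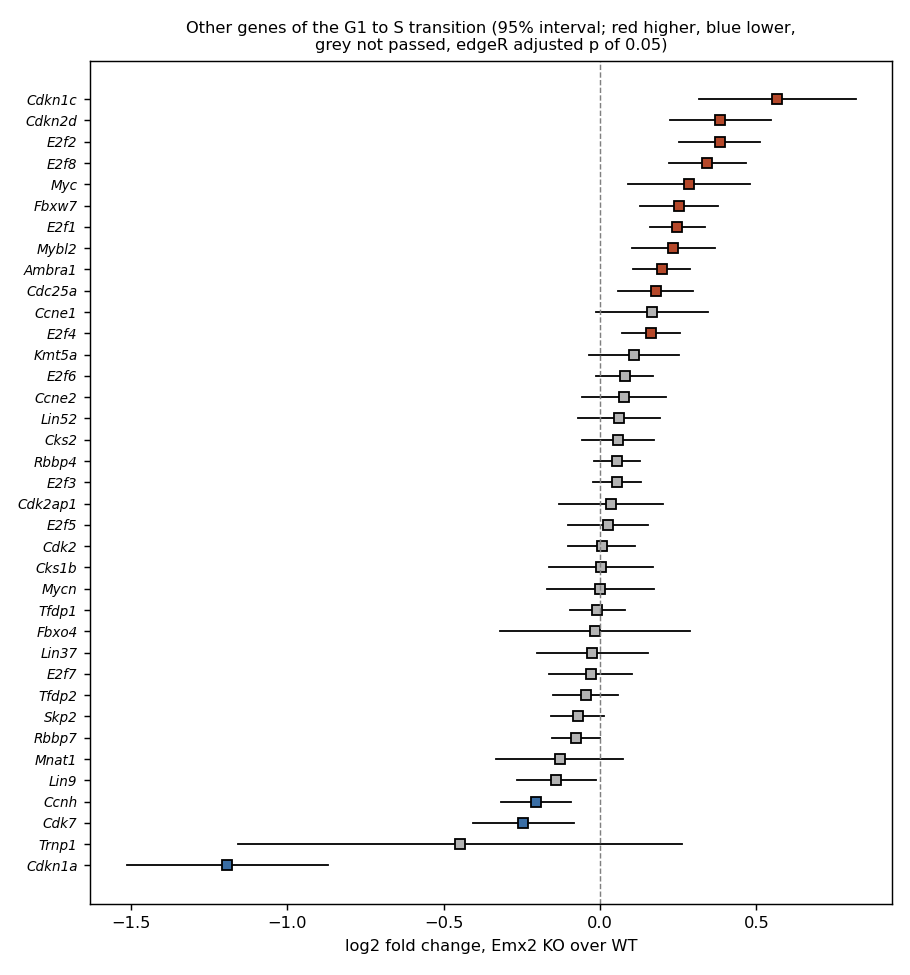
Log2 fold change, Emx2 KO over WT, of the 37 other G1 to S genes tested, with 95% intervals, ordered by value (red higher, blue lower, grey not passed). Cdkn1a (-1.19) lies far to the left and Cdkn1c (0.57) at the top right, and most genes lie within 0.3 of 0.

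Of 30 E2F targets that act in DNA replication 5 rose and 25 did not pass by edgeR (16.7% called, beside 22.4% of all genes), with a median log2 fold change of 0.01. At an unadjusted p under 0.05, 5 were higher and 3 lower (Cdc7 -0.13, Chaf1b -0.13 and Prim1 -0.15). By rank of p-value, between 19.2% (the rank of Cdkn2c) and 43% (that of Cdk6) of all genes lay under this threshold, in either direction. The 5 that rose were the chromatin assembly gene Chaf1a (0.22), the ribonucleotide reductase gene Rrm2 (0.21), Uhrf1 (0.20), which maintains DNA methylation, the licensing factor gene Cdt1 (0.26) and the helicase subunit gene Mcm3 (0.17). Pcna, the replication clamp gene, had a log2 fold change of -0.02. Of 18 mitosis genes 4 rose, 3 fell and 11 did not pass (38.9% called), with a median log2 fold change of -0.03. Plk1 (0.42), Foxm1 (0.28), Aurkb (0.21) and Cdc20 (0.17) rose, and Cenpf (-0.22), Ttk (-0.20) and Cenpe (-0.12) fell.

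Rbl1 and E2f2 are both known E2F targets, and their promoter windows are shown because 1 of them rose and the other did not. The windows are those of RefSeq on GRCm38.p6, from 250 bases before to 50 bases after the annotated start, with matches to the E2F motifs TTTCGCGC or TTTGGCGC, on either strand, in capitals. Rbl1 lies at chr2:157204485-157204784 on the minus strand and E2f2 at chr4:136172024-136172323 on the plus strand.
Rbl1: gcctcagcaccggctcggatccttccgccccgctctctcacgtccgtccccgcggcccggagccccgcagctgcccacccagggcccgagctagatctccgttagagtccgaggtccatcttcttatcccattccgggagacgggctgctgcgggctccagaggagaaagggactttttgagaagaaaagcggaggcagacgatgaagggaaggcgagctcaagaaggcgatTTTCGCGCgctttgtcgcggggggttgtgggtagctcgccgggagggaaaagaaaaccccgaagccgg
E2f2: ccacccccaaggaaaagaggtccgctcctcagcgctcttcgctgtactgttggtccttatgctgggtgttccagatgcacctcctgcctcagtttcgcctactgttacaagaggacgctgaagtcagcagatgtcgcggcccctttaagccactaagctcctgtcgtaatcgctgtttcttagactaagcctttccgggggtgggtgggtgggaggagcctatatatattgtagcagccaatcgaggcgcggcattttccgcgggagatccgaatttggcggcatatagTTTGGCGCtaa
The match of Rbl1 lies before its start and that of E2f2 after it. Of the 10 members 7 had such a window, and Rbl1 was the only 1 of these 7 with a match. The table had no window for Ccnd1, Ccnd2 and Rb1. Over all 32851 windows 0.813% held a match, and counted by gene 0.929% of 27025 genes had one. Among the 25 replication genes with a window 9 did, 3 of which were among those that rose (Cdt1, Mcm3 and Uhrf1). In the wider G1 to S list 4 of the 33 genes with a window did, E2f2 among them. A match is a description of the letters and not a binding site.

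Markers of several cell types moved with genotype. Over all genes 13.1% were called higher and 9.37% lower. Radial glia markers, of the progenitors that line the ventricle, were higher for 10 of 13 and lower for 1, and their summed level was 4289 to 4976 CPM in KO and 3633 to 3899 CPM in WT libraries. Intermediate progenitor markers were higher for 8 of 11 (1758 to 2092 CPM in KO, 1391 to 1672 CPM in WT), and early neuron markers for 8 of 14 (4939 to 6393 CPM in KO, 3265 to 5166 CPM in WT). Markers of the cortical hem, the signalling margin of the cortex, were lower for 9 of 10 (113 to 266 CPM in KO, 360 to 555 CPM in WT), those of choroid plexus for 6 of 9 tested (83.9 to 115 CPM in KO, 286 to 335 CPM in WT) and those of Cajal-Retzius cells, early-born cortical neurons, for 4 of 8 with 1 higher (245 to 327 CPM in KO, 404 to 454 CPM in WT). Subpallial and GABAergic markers were higher for 9 of 12 (232 to 755 CPM in KO, 124 to 334 CPM in WT). The first markers of each list had log2 fold changes of 0.34 (Pax6) and 0.53 (Sox2) for radial glia, 0.34 (Eomes) and 0.98 (Neurog1) for intermediate progenitors, and 0.64 (Tubb3) and 0.53 (Dcx) for early neurons, all called. Those of the hem were -2.31 (Wnt2b) and -1.79 (Wnt3a), those of choroid plexus -5.61 (Ttr) and -5.78 (Kcne2), those of Cajal-Retzius cells -0.85 (Reln) and -1.70 (Trp73), and those of the subpallium 1.79 (Dlx1) and 1.99 (Dlx2), all called as well. Named after their values were seen, Prom1 (-0.25, edgeR adjusted p = 0.0118) was the radial glia marker called lower, and Calb2 (0.72, adjusted p = 0.00424) the Cajal-Retzius marker called higher. No marker of these lists was at 0 in all libraries. The part of these differences in the cyclin results was not tested. The summed levels of early neuron and subpallial markers overlapped between the genotypes, as did those of blood, endothelium, microglia and meninges. Log2 fold changes were positive for 10 blood, 1 endothelial, 0 microglial and 3 meninges genes. Of 10 genes in each of these lists, edgeR called 2 meninges genes as lower and 0 genes of blood, endothelium and microglia, as did DESeq2 and limma-voom for the last 3. At an unadjusted p under 0.05 edgeR gave 1 blood gene higher, 4 endothelial genes lower and 2 microglial genes lower. Ranks of p-values place between 19.2% (the rank of Cdkn2c) and 43% (that of Cdk6) of all genes under this threshold, in either direction. These counts are descriptions only.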

How the data were processed

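RNA-seq read counts per gene were analysed from 10 libraries of mouse E12.5 cortex, 5 labelled Emx2 KO and 5 WT, grouped by that label. The authors deposited unnormalized counts of reads, 1 value for each Ensembl gene. The submitters' processing notes list featureCounts 1.6.3-p1, STAR 2.7.8a and bcl2fastq 2.20, with GRCm39 and rn6 as builds and no role given for either. Strand setting, parameters and annotation release are not given in the sources used here.

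Symbols were matched for 52073 of 56748 identifiers. Genes were filtered with filterByExpr (minimum count 10), scaled by TMM and compared with edgeR 4.0.16 (R 4.3.3), by its quasi-likelihood F test with genotype as the only term, adjusted by Benjamini-Hochberg over the 18163 genes that passed. SEs come from the F statistic and 95% intervals from the test's t quantile. CPM uses TMM-scaled totals, and CPM per kilobase divides by merged exon length from GENCODE annotation of GRCm38, a build other than that of the counts. Within a genotype all 20 pairs of libraries differed by more than counting error (9.10 to 24.3 as the mean chi-square over genes), so none was merged. The fit was tested on simulated counts.

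The members and lists were chosen with earlier results of these data known. All members, and up to 12 called genes of each wider list by smallest p, are named. Alternatives were other scalings, no filter, DESeq2 1.42.0, limma-voom (limma 3.58.1), blocks, a Y-linked covariate, parts of the libraries, each library left out, and a threshold of 0.01.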

Additional observations from a re-analysis of the deposited data

Results flagged for a closer look

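In each group of 5 libraries the highest and lowest level of every member was compared with the spread of its group, as the gap to the next library over the range, with Dixon's test at the 95% level. Of 20 groups 2 had a library that stood apart, where chance gives about 1 in 20. KO replicate 1 was the highest KO library for Cdk4 (ratio 0.856), with 773 CPM and 706 CPM in the next. WT replicate 1 was the lowest WT library for Rb1 (ratio 0.829), with 76.0 CPM and 94.4 CPM in the next. Neither gene was called, and neither was called in any fit without 1 library (lowest adjusted p by edgeR 0.232 for Cdk4 and 0.294 for Rb1).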

How the results depend on the processing

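Over 23 alternatives, Ccnd1 was higher in all (log2 fold change 0.59 to 1.02) and Ccnd2 lower in all (-0.39 to -0.24). Ccnd1 lost its call in the small libraries alone and with title code 14922 alone (0.68, adjusted p = 0.0788), and Ccnd2 in the small libraries alone and with either code alone (241022: -0.24, adjusted p = 0.432; 14922: -0.38, adjusted p = 0.153). These fits hold 4 or 5 libraries. Without each library in turn, Ccnd1 ran from 0.78 to 0.95 (highest adjusted p = 0.00405) and Ccnd2 from -0.39 to -0.28 (highest adjusted p = 0.04).

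The number of members called higher was 1 in place of 2 with upper-quartile scaling, with total counts alone, with the Y-linked covariate, in the large libraries, with code 241022 and at a threshold of 0.01, and 0 in the small libraries and with code 14922. It ran from 1 to 2 without each library in turn, with Cdkn2c the call lost without KO replicates 2, 4 or 5 or WT replicates 1, 4 or 5. The number called lower was 0 in place of 1 in the small libraries, with either code alone and at 0.01. Of the wider G1 to S list, 0 genes were called higher in the small libraries, 1 with code 241022, 0 with code 14922 and 7 at 0.01, in place of 11. Higher calls of this list numbered 8 with upper-quartile scaling, total counts alone, no filter or the large libraries alone. Lower calls numbered 5 with upper-quartile scaling or total counts alone, 1 in the large libraries, the small libraries, with code 14922 or at 0.01, and 0 with code 241022, in place of 3. Over all genes 4074 were called, and 3136 in the large libraries alone. The number was 558 in the small libraries, 443 with code 241022, 1414 with code 14922 and 2203 at 0.01. Of the 4074 calls 58.2% were higher, against 45.9% of calls with upper-quartile scaling and 42.3% with total counts alone. Fits of part of the libraries held fewer samples, and 0.01 is a stricter threshold. The cause of the differences was not tested.

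Signs turned only in members that were not called, though not always at values near 0. Ccnd3 was -0.151 in the small libraries, against 0.223 in the large ones, and -0.0783 with code 14922. It ran from -0.0337 (without KO replicate 1) to 0.121 without each library in turn. In the large libraries Cdk6 was -0.0382, Cdkn1b -0.0471 and Rbl1 -0.0975, against 0.268, 0.182 and 0.128 in the small ones. Rbl1 was also -0.0242 with upper-quartile scaling, -0.0343 with total counts alone, -0.000915 with limma-voom and -0.00201 with the Y-linked covariate, and ran from -0.0165 to 0.0503 without each library in turn, below 0 without KO replicates 2, 3 or 5 or WT replicate 2. Rb1 was 0.00249 in the small libraries and ran from -0.121 to 9.51e-05 (without KO replicate 1) without each library in turn, and Rbl2 was 0.011 with code 241022. No paired analysis was possible because the numbers that tell libraries of 1 title code apart are not shared between the genotypes, and the replicate numbers used here follow accession order. The title codes hold both genotypes and were used as a block instead: with title code as a block 4067 genes were called, and 3772 with size class as a block, and neither changed a call of a member. Genes with few reads, such as Cdkn2a and Cdkn2b, are beyond what this depth can compare.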
